A study of Mus musculus with 4 samples.

Results

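The metallothioneins Mt1 and Mt2, the metal-responsive transcription factor Mtf1, the zinc exporter Slc30a1 (ZnT1) and the zinc importer Slc39a14 (ZIP14) were followed in mouse kidney cells after a single dose of FGF23, the bone-derived hormone that lowers phosphate and active vitamin D through the kidney. They are 5 of the 31053 genes listed in the deposited matrices and were found by symbol, each under 1 gene ID. They were chosen by their levels in proximal tubule cells after FGF23, where a rise of the metallothioneins was already known, so these levels are a description and no test rests on them. The series holds 4 droplet single-cell libraries, 1 per group, from kidneys of C57BL/6 mice aged 10 weeks with no genetic change named. Mice of 3 groups received 10 µg of recombinant human FGF23 into the peritoneum and were taken after 1, 4 or 12 h, and the comparison group is labelled as 0 h with a dose of 0 µg. The deposited matrix of that group carries a name that describes saline at 1 h, so the labels do not say plainly if these mice were injected, and the group is called the 0 h library here. Each library pooled kidneys of both sexes, and cells were dissociated and passed through a removal of dying cells. With 1 library per group no difference has a replicate check, and all intervals below are 95% intervals that cover counting error only. The series holds no library of undosed mice at 4 or 12 h. Differences from 0 h at these times can therefore not be told apart from time of day, feeding or handling.

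The libraries held 12245 to 13813 barcodes and 139675666 to 158838728 UMIs (unique transcript molecules counted), and 8758 to 10131 cells each were kept. Between 36 and 57 barcodes were shared by any pair of libraries. Cells were grouped into classes that carry the name of their markers, and the deposited files used here held no annotation of cells. The proximal tubule (PT-like) class held 6555, 6245, 7219 and 6366 cells at 0, 1, 4 and 12 h. It split into S1/S2-like cells of the early segments (3945, 4101, 4929 and 4711) and S3-like cells of the straight end (2610, 2144, 2290 and 1655). The mix of segments thus differed between libraries. For a gene that differs by segment, a ratio over all PT-like cells can also carry this difference. The distal convoluted and connecting tubule (DCT/CNT-like) class held 401 to 561 cells per library and the thick ascending limb (TAL-like) class 366 to 445. Principal (PC-like) and intercalated (IC-like) cells of the collecting duct were fewer, at 55 to 117 and 80 to 235. Unnamed clusters took 303 to 435 cells per library, and no podocyte or thin limb cluster was named. In PT-like cells the PT markers Lrp2 and Slc34a1 stood at 1054 to 1162 and 3109 to 3690 CPM, the UMIs of a gene over all UMIs of its class and library, times 1000000 (UMIs of transcript ends, which do not scale with gene length). In DCT/CNT-like cells Slc12a3, the thiazide-sensitive cotransporter, stood at 9070.4 to 11417 CPM.

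Metallothioneins are small cysteine-rich proteins that bind zinc and copper and buffer the free metal in the cell. When zinc in the cytosol rises, the zinc-finger protein MTF1 binds short metal response elements in front of the metallothionein genes and of Slc30a1, whose product moves zinc out of the cell. ZIP14 works in the opposite direction and brings zinc, and also iron and manganese, into the cell. Glucocorticoids, inflammatory signals and oxidative stress are also known to raise metallothioneins, and kidney tubule cells take up circulating metallothionein with its metal.

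Mt1 (ENSMUSG00000031765) lies on chromosome 8 at 94179082 to 94180327 on the plus strand of GRCm38 (the build named mm10 in the submitters' processing notes), in the GENCODE vM21 annotation. Mt2 (ENSMUSG00000031762) lies next to it at 94172664 to 94173568 on the same strand, 5513 bases away, and overlaps the antisense gene Gm45774. Mtf1 (ENSMUSG00000028890) lies on chromosome 4 at 124802104 to 124849800, and Slc30a1 (ENSMUSG00000037434) on chromosome 1 at 191906767 to 191913247, both on the plus strand. Slc39a14 (ENSMUSG00000022094) lies on chromosome 14 at 70303469 to 70351425 on the minus strand. Reads of Mt2, Slc30a1 and Mtf1 overlap annotated neighbours on the other strand, and how the authors' counting used strand is not given in the sources used here.

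The promoters below are shown because MTF1 is known to act through them and because Mt1 and Mt2 were past 2-fold in these data while Slc30a1 was not. They are RefSeq sequences of GRCm38.p6 on the plus strand, each with the 250 bases in front of the RefSeq start: chr8:94178839-94179088 for Mt1, chr8:94172368-94172617 for Mt2 and chr1:191906531-191906780 for Slc30a1. For Mt1 and Mt2 the next 30 bases are given as well. Capitals mark the core of the metal response element, searched as TGCACNC or TGCGCNC on both strands.
Mt1 promoter: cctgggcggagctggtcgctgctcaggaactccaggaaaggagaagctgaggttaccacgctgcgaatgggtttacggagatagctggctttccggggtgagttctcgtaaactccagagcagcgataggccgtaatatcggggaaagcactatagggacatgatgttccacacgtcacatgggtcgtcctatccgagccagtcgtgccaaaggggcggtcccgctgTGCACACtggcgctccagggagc
Mt1 next bases: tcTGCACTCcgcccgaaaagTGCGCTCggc
Mt2 promoter: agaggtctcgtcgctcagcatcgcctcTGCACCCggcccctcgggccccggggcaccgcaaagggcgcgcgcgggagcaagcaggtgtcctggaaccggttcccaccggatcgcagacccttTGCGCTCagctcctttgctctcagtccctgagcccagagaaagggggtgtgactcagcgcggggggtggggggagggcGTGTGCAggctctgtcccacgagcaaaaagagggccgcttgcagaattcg
Mt2 next bases: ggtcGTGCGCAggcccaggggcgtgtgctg
Slc30a1 promoter: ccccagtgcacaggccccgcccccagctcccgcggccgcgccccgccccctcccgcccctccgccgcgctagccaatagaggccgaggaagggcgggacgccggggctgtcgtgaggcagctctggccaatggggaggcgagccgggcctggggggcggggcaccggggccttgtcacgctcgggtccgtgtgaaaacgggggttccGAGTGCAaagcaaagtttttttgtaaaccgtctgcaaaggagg
Over the 300 bases held in the table for each gene (250 in front of the start and 50 after it), Mt1 had 3 matches, all on the plus strand. Only 1 of these Mt1 matches lay in front of the RefSeq start. Mt2 had 4, with 2 on each strand, and Slc30a1 had 2 on the minus strand, of which 1 falls outside the bases shown. Mtf1 had 0 matches, and Slc39a14 was not matched in the table. At least 1 match was found in 25.7% of 32851 promoters of this length, at least 2 in 7.11%, at least 3 in 1.97% and at least 4 in 0.517%. Bases beyond these 300 were not searched, so the counts hold for the RefSeq starts used and may leave out elements elsewhere. A match describes the letters and not a bound site.

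Mt1 was highest in the distal nephron in every library. In DCT/CNT-like cells it stood at 1098, 2056, 3047 and 1635 CPM at 0, 1, 4 and 12 h, and in TAL-like cells at 1039.55, 1184, 1948 and 1239.9 CPM. At 0 h these classes were nearly level, with a log2 difference of 0.08 (interval 0.01 to 0.14) in favour of DCT/CNT-like cells. IC-like cells followed at 332 CPM (interval 299.7 to 367) and PC-like cells at 238 (208 to 272). Macrophage/monocyte-like cells held 96.9 CPM (80.0 to 116).

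PT-like cells came after all of these at 0 h, with 23.6 CPM (22.6 to 24.7). That level overlapped the intervals of endothelial-like cells at 19.9 (11.4 to 32.3) and neutrophil-like cells at 19.3 (9.97 to 33.7), which rest on 16 and 12 UMIs. T/NK-like cells held 11.2 CPM (5.39 to 20.7) and B cell-like cells 5.45 (1.12 to 15.9). At 4 h the order had changed, and PT-like cells at 285 CPM (282 to 289) lay above macrophage/monocyte-like cells at 78.5 (57.1 to 105).

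**Figure D1:**
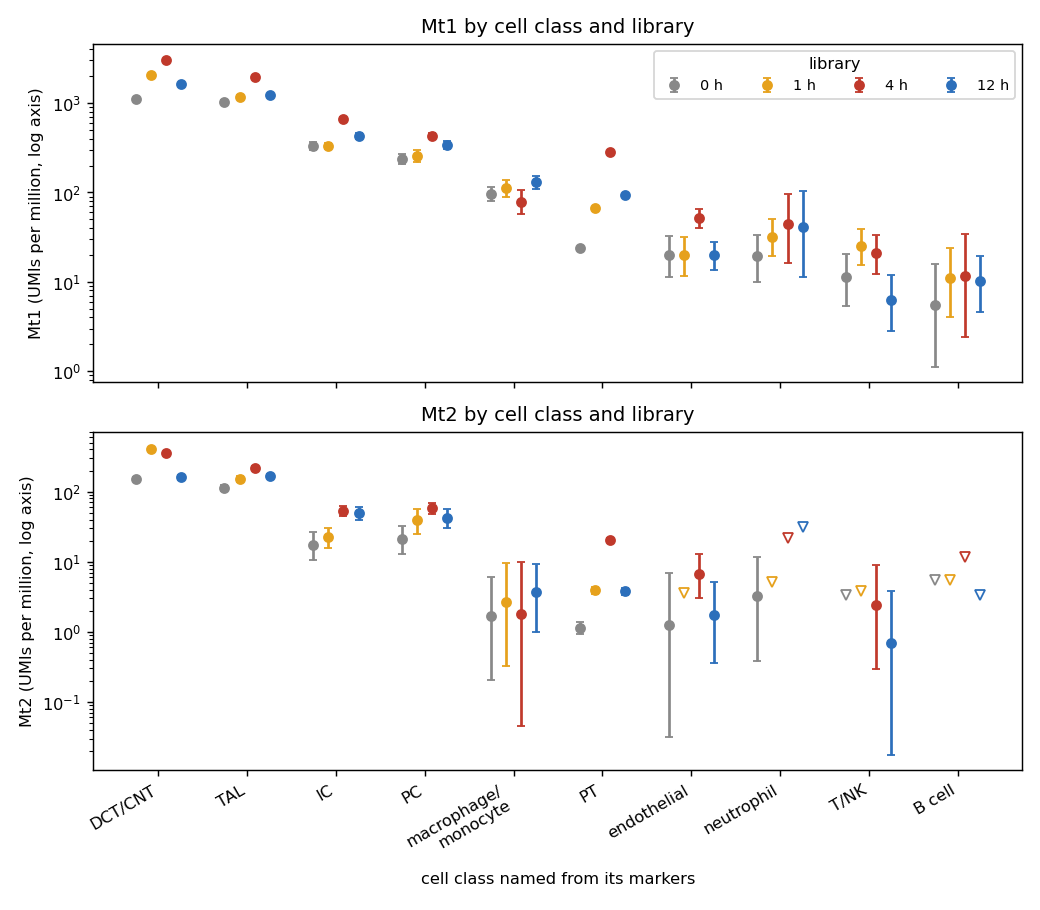
Mt1 (upper panel) and Mt2 (lower panel) in CPM on a log axis, for each cell class (x axis) and library (colour), with exact Poisson 95% intervals; open triangles stand at the limit that a count of 0 allows (3 counts). DCT/CNT-like and TAL-like cells are highest for both genes, and PT-like cells go from 23.6 CPM at 0 h to 285 CPM at 4 h for Mt1.

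In PT-like cells Mt1 stood at 23.6, 66.3, 285 and 92.7 CPM at 0, 1, 4 and 12 h, counted from 2074, 6014, 27905 and 7522 UMIs. The 4 h library was the highest, the 0 h library the lowest, and none of the 4 intervals overlapped. Against 0 h, Mt1 was 2.81-fold higher at 1 h (log2 ratio 1.49, 1.42 to 1.56). It was 12.1-fold higher at 4 h (log2 ratio 3.59, 3.53 to 3.66) and 3.92-fold higher at 12 h (log2 ratio 1.97, 1.90 to 2.04). Since fewer expressing cells and less RNA per cell both lower a summed level, the share of cells with a UMI is given further on.

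Mt2 in PT-like cells was also highest at 4 h, at 1.13, 3.90, 20.7 and 3.79 CPM from 99, 354, 2019 and 308 UMIs. The 4 h library again stood apart from the other 3, while the 1 h and 12 h libraries had overlapping intervals (3.51 to 4.33 and 3.38 to 4.24). The log2 ratios to 0 h were 1.79 (1.47 to 2.13), 4.19 (3.90 to 4.50) and 1.75 (1.42 to 2.09). In female-called PT-like cells alone, the 12 h ratio of Mt2 was 0.90. Of the 11746 genes with at least 100 UMIs in PT-like cells of the 0 and 4 h libraries together, Mt2 had the highest ratio and Mt1 ranked 2. At 1 h they ranked 12 and 24 of 11639, and at 12 h 34 and 26 of 11635.

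A gene is counted as past the threshold here at a 2-fold difference from 0 h with at least 100 UMIs over both libraries. All 5 genes had that many UMIs in PT-like cells at each time. Mt1 and Mt2 passed it upwards at 1, 4 and 12 h, and Mtf1, Slc30a1 and Slc39a14 passed it at none of these times. Over all genes, 0.404%, 1.73% and 1.37% were past the threshold upwards in PT-like cells at 1, 4 and 12 h, and 0.404%, 1.24% and 1.42% downwards. Because the genes were picked for this contrast, nothing is read from the count.

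Values of other cell types beside this result were as follows. In PT-like cells the 8 DCT/CNT markers summed to 72.3, 78.3, 100.1 and 108 CPM at 0, 1, 4 and 12 h, with 1 of them at 0 at 0 h. The 7 TAL markers summed to 366, 399.8, 364 and 386 CPM with none at 0. Slc12a3 stood at 8.37 CPM in PT-like cells at 4 h against 9391 in DCT/CNT-like cells, while Mt1 stood at 285 against 3047. Umod, the main secreted protein of the thick limb, stood at 11.2 CPM in PT-like cells at 4 h against 19182 in TAL-like cells. The PT-like level of Mt1 at 4 h was 10.7-fold below the DCT/CNT-like level. At 4 h the 8 DCT/CNT markers summed to 38218 CPM in DCT/CNT-like cells and the 7 TAL markers to 27803 CPM in TAL-like cells. The part of distal RNA in the PT-like Mt1 levels was not tested. The 7 neutrophil markers summed to 121, 82.2, 298 and 143 CPM in PT-like cells, and S100a8, a defining one, to 4.72, 2.90, 0.849 and 0.493 CPM, and their part in the Mt1 levels was not tested. The median share of mitochondrial UMIs in PT-like cells was 21.9%, 21.9%, 15.9% and 20.6%, lowest in the 4 h library. With mitochondrial genes left out of the total, the Mt1 ratio at 4 h was 3.50 on the log2 scale.

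The segments of the proximal tubule differed in level and also in their mix of sexes. By transcripts of the sex chromosomes, S3-like cells at 0 h held 1811 male-called and 80 female-called cells. S1/S2-like cells held 1246 and 1309, so the comparison of segments is also in part one of sexes. In S1/S2-like cells Mt1 stood at 43.7, 106, 462 and 133 CPM, with log2 ratios to 0 h of 1.28, 3.40 and 1.61, where 0.485%, 1.75% and 0.988% of all genes were past 2-fold upwards. In S3-like cells it stood at 4.55, 14.8, 29.9 and 19.7 CPM, with log2 ratios of 1.70, 2.72 and 2.11. At 4 h the ratio over all PT-like cells (3.59) lay above both segment values, so it also carries the different mix of segments. The S1/S2-like level was 9.61-fold that of S3-like cells at 0 h (8.32 to 11.2) and 15.5-fold at 4 h (14.6 to 16.4), with 7.16- and 6.78-fold in the 1 h and 12 h libraries. The S3-like level was 0.405-fold that of T/NK-like cells at 0 h, 0.588-fold at 1 h, 1.44-fold at 4 h (0.894 to 2.48) and 3.16-fold at 12 h (1.65 to 6.94). Against endothelial-like cells it was 0.229-, 0.739-, 0.584- and 0.994-fold. Of 6 S3-like clusters with at least 20 UMIs, 5 were past 2-fold at 4 h, with levels from 7.39 to 172 CPM over the 6. Since the S3-like level was near that of cells outside the tubule, its ratios are given as values only.

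Within S1/S2-like cells the higher Mt1 level at 4 h was found across clusters. All 10 S1/S2-like clusters were past 2-fold at 4 h, with log2 ratios from 2.67 to 4.29 and levels from 145 to 978 CPM. At 1 h, 8 of these 10 clusters were past 2-fold (0.47 to 1.93), and at 12 h all 10 (1.03 to 2.92). Mt2 had at least 20 UMIs over both libraries in 9 S1/S2-like clusters at 4 h, and all 9 were past 2-fold, with log2 ratios from 3.67 to 5.02.

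The 4 h values of S1/S2-like cells differed between cells called male and cells called female from transcripts of the sex chromosomes (1246 to 1490 male-called and 1268 to 1798 female-called cells per library, the rest without a call). Male-called S1/S2-like cells held Mt1 at 33.5, 67.8, 575 and 111 CPM at 0, 1, 4 and 12 h. Female-called S1/S2-like cells held it at 51.3, 139, 338 and 147 CPM. The male-called cells were thus lower at 0, 1 and 12 h, at 0.652-, 0.489- and 0.758-fold of the female-called level, and higher at 4 h, at 1.70-fold (1.65 to 1.75).

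For Mt2 the same comparison was wider. Male-called S1/S2-like cells held 0.927, 3.30, 54.6 and 4.80 CPM, and female-called ones 2.75, 7.85, 12.0 and 5.01 CPM. At 4 h the male-called level was 4.56-fold the female-called level (4.01 to 5.21), while the 12 h levels were not told apart (0.957-fold, 0.708 to 1.30). The log2 ratio of Mt2 to 0 h at 4 h was 5.88 (5.15 to 6.72) among male-called cells, from 15 UMIs at 0 h. Among female-called cells it was 2.12 (1.66 to 2.61), from 45 UMIs. Each library pooled the sexes and the labels used here do not say how many pairs, so sex and animal cannot be told apart. Sex was not compared in S3-like cells, which held only 56 to 80 female-called cells per library, against 987 to 1811 male-called ones. An S1/S2-like cluster with Xist among its top 10 genes had S1/S2 markers near the mean of all clusters (mean log2 difference 0.05). Whether female cells of the S3 segment were named S1/S2-like was not tested.

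**Figure D2:**
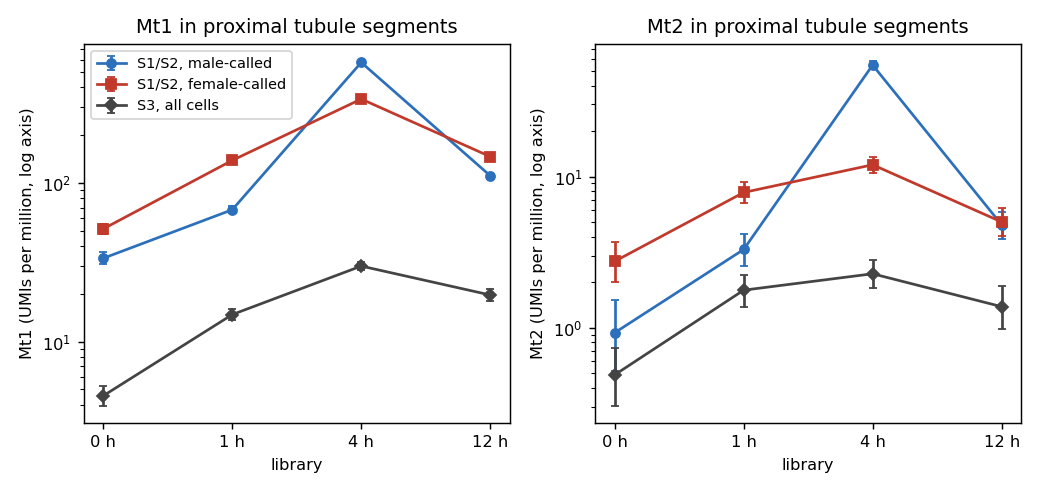
Mt1 (left) and Mt2 (right) in CPM on a log axis over the 4 libraries, for male-called S1/S2-like, female-called S1/S2-like and all S3-like cells, with exact Poisson 95% intervals. Male-called S1/S2-like cells lie under the female-called ones for Mt1 at 0, 1 and 12 h and above them at 4 h, at 575 against 338 CPM.

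More cells carried Mt1, and the carrying cells were unequal. After each cell was thinned to 2000 UMIs, 7.51%, 16.2%, 42.5% and 19.1% of S1/S2-like cells had a UMI of Mt1 at 0, 1, 4 and 12 h (exact interval at 4 h, 41.1% to 44.0%). Without thinning the shares were 24.2%, 44.6%, 73.9% and 49.5%, at median depths of 9703 to 11194 UMIs per cell. The same thinned share was 2.74%, 1.51%, 4.48% and 1.14% in T/NK-like cells (median depths of 3057 to 3342 UMIs) and 0.980%, 2.24%, 2.74% and 1.33% in B cell-like cells, where they rest on 3 to 9 and 1 to 3 cells per library. That Mt1 in these immune cells is free RNA was not tested. S3-like cells stood at 0.696%, 1.64%, 3.97% and 3.08%. They were below the interval of the T/NK-like share at 0 h and within it at 1 h (0.312% to 4.34%) and at 4 h. At 12 h they were above it (0.311% to 2.89%). Thinning left out 104 to 331 S1/S2-like cells and 5 to 34 S3-like cells per library.

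**Figure D3:**
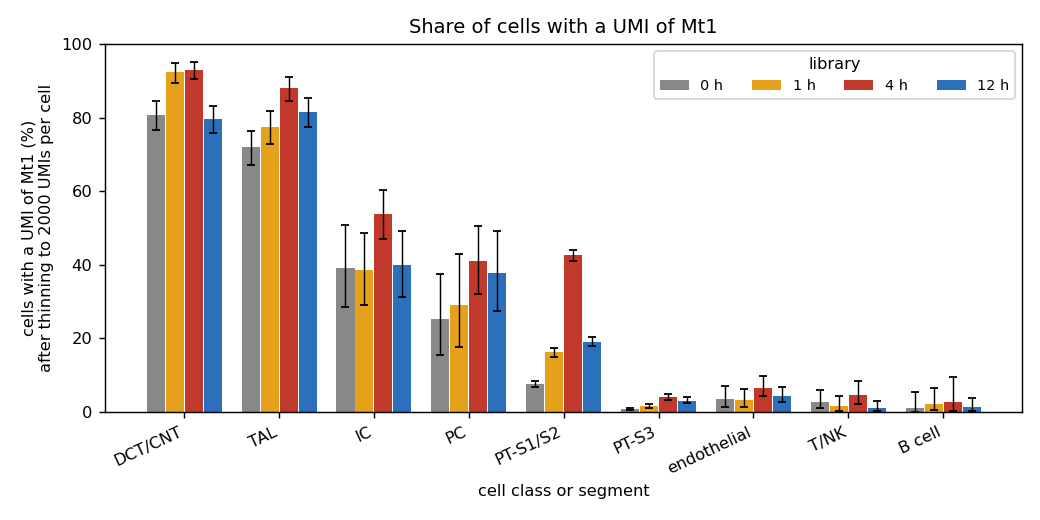
Percent of cells with at least 1 UMI of Mt1 after thinning each cell to 2000 UMIs, by class or segment (x axis) and library (colour), with exact Clopper-Pearson 95% intervals. S1/S2-like cells go from 7.51% at 0 h to 42.5% at 4 h, DCT/CNT-like cells stay at 79.7% or more, and S3-like, endothelial-like, T/NK-like and B cell-like cells stay under 7%.

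At 4 h, thinned shares with a UMI of Mt1 were close in male-called and female-called S1/S2-like cells, at 41.9% (39.3 to 44.4) and 40.1% (37.9 to 42.5). The upper end differed: the cell at the 90th percentile held 1671 CPM among male-called and 788 CPM among female-called cells, while the medians were 183 and 217 CPM. The 10% of cells with most Mt1 held 58.0% of all its UMIs among male-called S1/S2-like cells and 41.3% among female-called ones. Over all PT-like cells of the 4 h library this part held 61.7%, against 30.2% in DCT/CNT-like cells. Mt2 was found mostly where Mt1 was: of 2099 thinned PT-like cells with a UMI of Mt1 at 4 h, 10.9% had a UMI of Mt2, against 0.501% of the 4992 others.

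In DCT/CNT-like cells, which start from a high level, the differences were smaller in ratio and larger in CPM. Mt1 was past 2-fold at 4 h only (log2 ratio 1.47, 1.43 to 1.52), with 0.90 in the 1 h and 0.57 in the 12 h library. Mt2 stood at 152, 405, 354 and 159.4 CPM and was past 2-fold at 1 h (1.42, 1.29 to 1.55) and 4 h (1.22, 1.10 to 1.35), with 0.07 at 12 h (-0.08 to 0.22). Over all genes in DCT/CNT-like cells, 0.827%, 2.77% and 1.52% were past 2-fold upwards at 1, 4 and 12 h. Mt2 was thus highest at 1 h in this class and Mt1 at 4 h. The ratio of the DCT/CNT-like level of Mt1 to the PT-like level was 46.5 in the 0 h library and 31.01, 10.7 and 17.6 in the following ones.

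The class joins 2 clusters, which differed in level and, for Mt2 at 1 h, in ratio. The cluster led by Slc12a3 and Pvalb, of the early distal tubule, held Mt1 at 1246, 2422, 3710.2 and 2016 CPM. The cluster led by Calb1 and S100g, genes of calcium transport in the later distal tubule, held 446, 742, 1170.3 and 604 CPM. Their log2 ratios at 4 h were 1.57 (1.53 to 1.62) and 1.39 (1.23 to 1.56). Mt2 at 1 h was 1.53 (1.40 to 1.67) in the Slc12a3-led cluster and 0.48 (0.01 to 0.95) in the Calb1-led cluster on the log2 scale. The Slc12a3-led cluster held 374, 331, 428 and 363 cells at 0, 1, 4 and 12 h, and the Calb1-led cluster 71, 70, 133 and 151. The mix thus differed between libraries, and ratios over the class can also carry this difference.

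In TAL-like cells neither gene reached 2-fold. Mt1 had log2 ratios of 0.19, 0.91 and 0.25 at 1, 4 and 12 h, and Mt2, at 114, 152, 219 and 168 CPM, had 0.42, 0.94 and 0.56. All genes past 2-fold in either direction made up 0.113%, 0.47% and 0.237% there. The cluster led by Umod held Mt1 at 1338, 1548, 2302 and 1457 CPM, with a log2 ratio at 4 h of 0.78 (0.72 to 0.85). The cluster led by Slc12a1 and Nccrp1 held 545, 528, 1333 and 875 CPM, with a log2 ratio at 4 h of 1.29 (1.16 to 1.43).

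In the collecting duct Mt1 stood at 332, 332, 664 and 430.4 CPM in IC-like cells and 238, 255, 434 and 339 CPM in PC-like cells. The 8 DCT/CNT markers summed to 8958, 3256, 7852 and 3358 CPM in IC-like cells and 3061, 1523, 2065 and 2103 CPM in PC-like cells, against 31515, 31650, 38218 and 34879 CPM in DCT/CNT-like cells, and their part in the Mt1 and Mt2 levels was not tested. IC-like cells reached the 2-fold threshold at 4 h only just (log2 ratio 1.00, 0.84 to 1.16), and PC-like cells did not (0.86, 0.65 to 1.08). Mt2 stood at 17.2, 22.2, 52.5 and 48.7 CPM in IC-like cells and was past 2-fold at 4 h (1.61, 0.93 to 2.36) and 12 h (1.499, 0.79 to 2.28). In PC-like cells Mt2 had enough UMIs at 4 h only, when it was past 2-fold (1.44, 0.75 to 2.21). The Mt2 calls in both classes rest on 20 UMIs each at 0 h. In male-called IC-like cells alone, Mt1 at 4 h (0.78) and Mt2 at 4 h (0.93) and 12 h (0.60) were under 2-fold. Genes past 2-fold upwards made up 0.926% in IC-like cells at 4 h, 0.23% at 12 h and 1.24% in PC-like cells at 4 h.

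Outside the tubule, Mt1 in macrophage/monocyte-like cells stood at 96.9, 112, 78.5 and 130 CPM, where the intervals overlapped except between 4 h (57.1 to 105) and 12 h (109 to 153). Endothelial-like cells held 19.9, 20.02, 51.3 and 19.8 CPM from 16 to 69 UMIs. In endothelial-like cells the 8 DCT/CNT markers summed to 124, 107, 264 and 299 CPM, and their part in the 4 h value was not tested. Mt2 had 0 UMIs in B cell-like cells in every library, which allows up to 5.45 CPM at 0 h, and at most 2 UMIs per library in T/NK-like cells.

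**Figure D4:**
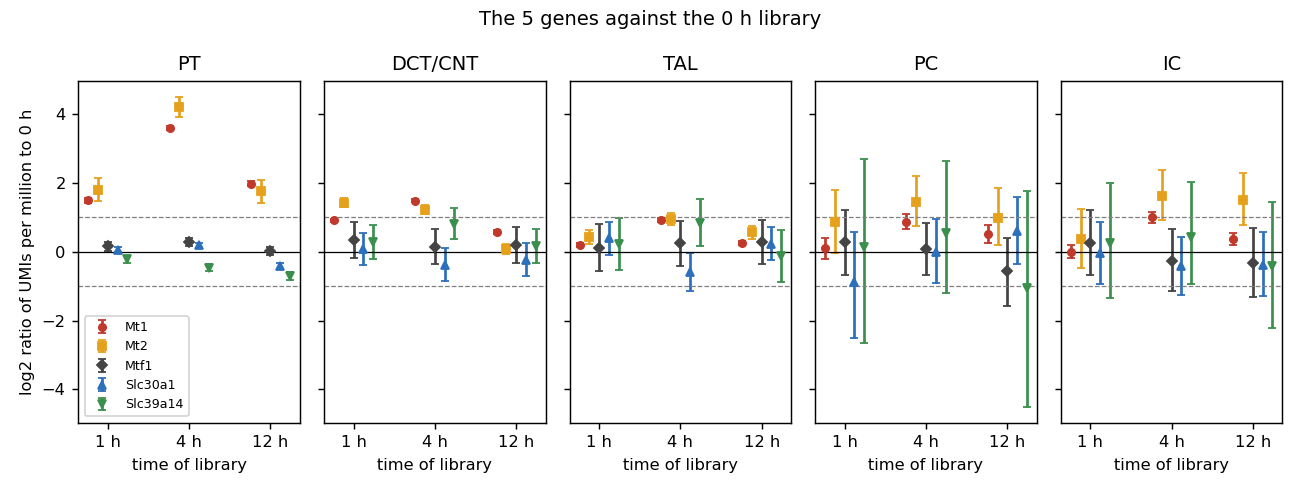
Log2 ratio of CPM to the 0 h library (y axis) at 1, 4 and 12 h for the 5 genes in 5 tubule classes, with exact conditional 95% intervals; dashed lines mark a 2-fold difference. Mt1 and Mt2 lie above the upper line in PT-like cells at all 3 times, at 3.59 and 4.19 at 4 h, while Mtf1, Slc30a1 and Slc39a14 lie between the lines there.

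Mtf1, the zinc sensor, stayed within 2-fold of 0 h in PT-like cells and also in DCT/CNT-like cells. In PT-like cells it stood at 12.2, 13.6, 14.8 and 12.3 CPM, with log2 ratios of 0.15 (0.03 to 0.27), 0.28 (0.16 to 0.39) and 0.02 (-0.11 to 0.14). In DCT/CNT-like cells it stood at 12.6, 15.9, 13.8 and 14.4 CPM, and all 4 intervals overlapped. Endothelial-like cells held more Mtf1 than PT-like cells at 0 and 1 h (28.6 and 37.7 CPM, from 23 and 32 UMIs). The PT-like level was also below theirs at 12 h, at 0.663-fold (0.467 to 0.975). At 4 h it was 0.687-fold, with an interval that reached equality (0.476 to 1.03). PC-like cells stood at 24.5 and 29.5 CPM at 0 and 1 h from 23 and 19 UMIs. At 0 h the DCT/CNT-like level of Mtf1 was 1.03-fold the PT-like level (0.772 to 1.35), where that of Mt1 was 46.5-fold.

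Slc30a1, the exporter that carries zinc across the plasma membrane, stayed within 2-fold. In PT-like cells it stood at 30.1, 31.3, 34.3 and 22.5 CPM, highest at 4 h and lowest at 12 h. The log2 ratios were 0.06 (-0.02 to 0.13), 0.19 (0.12 to 0.26) and -0.42 (-0.50 to -0.33). In S1/S2-like cells the 4 h ratio was 0.49 (0.38 to 0.61) and in S3-like cells 0.05 (-0.05 to 0.15). The 12 h ratio in S1/S2-like cells alone was -0.24, and the PT-like value can also carry the mix of segments. Unlike Mt1, Slc30a1 was higher in S3-like cells (37.6 CPM at 0 h) than in S1/S2-like cells (22.1 CPM). Slc30a1 in DCT/CNT-like cells stood at 16.7, 17.6, 12.9 and 14.3 CPM, below the PT-like level in each library. The DCT/CNT-like ratio at 4 h was -0.38 (-0.85 to 0.10).

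Slc39a14, the importer, was lower over all PT-like cells in each library after FGF23, also within 2-fold. In female-called cells it was not lower at 1 and 4 h (0.24 and 0.12). It stood at 18.0, 15.5, 13.0 and 11.1 CPM, with log2 ratios of -0.22 (-0.32 to -0.11), -0.47 (-0.58 to -0.36) and -0.70 (-0.82 to -0.58). In S1/S2-like cells the 1 h level was close to that of 0 h (14.0 against 14.2 CPM), and 5 of 8 clusters with at least 20 UMIs were higher at 1 h. At 12 h 3 of 6 S3-like clusters were higher. Male-called S1/S2-like cells held Slc39a14 at 20.1, 15.6, 11.5 and 13.0 CPM, and female-called ones at 11.9, 16.4, 14.2 and 9.74 CPM. DCT/CNT-like cells held more of it at 4 h than at 0 h, at 14.0, 17.0, 24.3 and 15.6 CPM (log2 ratio at 4 h 0.80, 0.36 to 1.25). In TAL-like cells it stood at 9.39, 10.9, 16.6 and 8.59 CPM from 29 to 59 UMIs.

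The other zinc transporters with at least 100 UMIs in PT-like cells stayed within 2-fold as well, as did most genes. Over all genes, 0.404%, 1.73% and 1.37% were past 2-fold upwards at 1, 4 and 12 h, and 0.404%, 1.24% and 1.42% downwards. Nothing is therefore read from the counts of 0 that follow. Of the 10 exporters of the Slc30a family, 7 had at least 100 UMIs, and 0 were past 2-fold at any time. Their median log2 ratio was 0.06, 0.03 and -0.05 at 1, 4 and 12 h. Of the 14 importers of the Slc39a family, 11 had enough UMIs and 0 were past 2-fold, with medians of 0.05, 0.06 and 0.03. The median over all genes with enough UMIs was 0.01, 0.05 and 0.03. The widest of the others was Slc39a5 (ZIP5), at 21.6, 22.6, 36.5 and 36.1 CPM, with a log2 ratio of 0.76 (0.67 to 0.84) at 4 h. Its 12 h ratio was 0.74 (0.66 to 0.82). Among S3-like cells the Slc39a5 ratio at 4 h was 1.18 (1.00 to 1.36), from a level of 8.39 CPM at 0 h, where 1.28% of all genes were past 2-fold upwards. Slc39a8 (ZIP8), the nearest relative of ZIP14, was lower, at 18.8, 13.7, 13.4 and 14.9 CPM, with a log2 ratio at 4 h of -0.49 (-0.59 to -0.38). In DCT/CNT-like cells 1 of 6 exporters with enough UMIs was past 2-fold at 4 h, Slc30a2 downwards at -1.11, against 1.74% of all genes downwards.

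**Figure D5:**
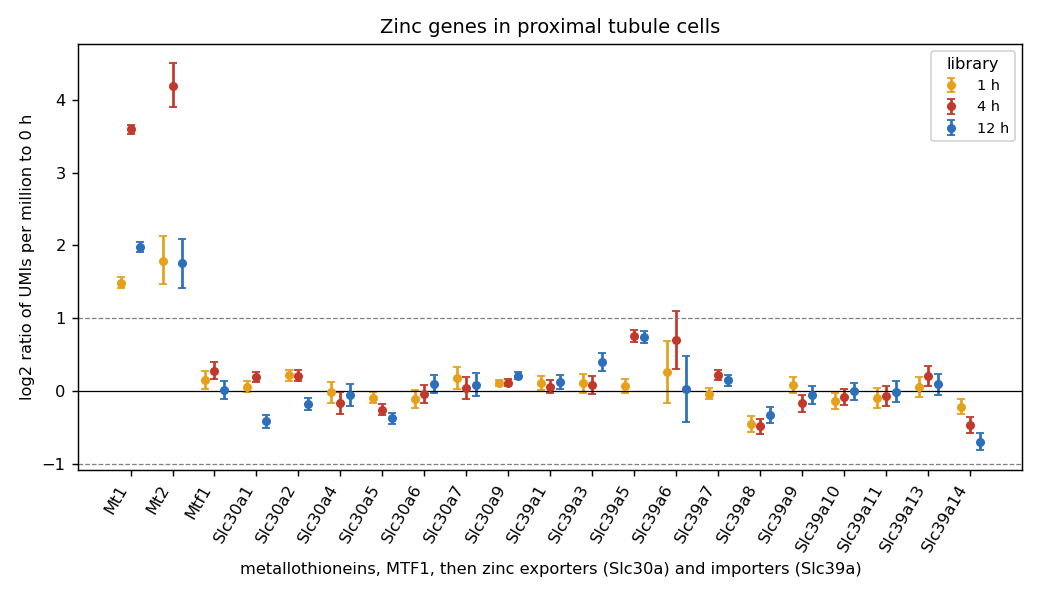
Log2 ratio of CPM to the 0 h library in PT-like cells at 1, 4 and 12 h (colour) for Mt1, Mt2, Mtf1 and the 18 zinc transporters with at least 100 UMIs in each comparison, with exact conditional 95% intervals; dashed lines mark a 2-fold difference. Only Mt1 and Mt2 lie outside the dashed lines, and Slc39a5 is the highest transporter at 4 and 12 h, at 0.76 and 0.74.

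Of the other genes linked to MTF1, 0 were past 2-fold in PT-like cells. At most 1.73% of all genes were past it upwards there, and at most 1.42% downwards, at any time. Slc40a1, the iron exporter ferroportin, stood at 22.7, 26.4, 36.3 and 25.04 CPM (log2 ratio at 4 h 0.68, 0.60 to 0.76). Gclc, the catalytic subunit of the enzyme that starts glutathione synthesis, had log2 ratios of -0.47, 0.23 and -0.39. Slc39a10 had ratios of -0.13, -0.08 and -0.01, and Csrp1 had fewer than 100 UMIs. None of 9 copper-handling genes, among them the copper chaperone Atox1 and Sod1, was past 2-fold at any time, and their medians were 0.03, 0.14 and 0.13. The same shares of all genes stand beside this count, and nothing is read from it. The brain metallothionein Mt3 had at most 3 UMIs per library in PT-like cells, and Mt4 had 0. In DCT/CNT-like cells 3 of the 8 MTF1-linked genes, Mt1 and Mt2 among them, were past 2-fold upwards at 4 h, against 2.77% of all genes.

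Genes of the other pathways known to raise metallothioneins were counted in PT-like cells. Whether any of these pathways acted on Mt1 or Mt2 was not tested. Of 10 genes of the oxidative stress response driven by NRF2 with enough UMIs, 1 was past 2-fold upwards at 1 h, 3 at 4 h and 1 at 12 h, against 0.404%, 1.73% and 1.37% of all genes. Hmox1, the heme-degrading enzyme, stood at 64.2, 179, 438 and 26.4 CPM, so that it was past 2-fold upwards at 1 and 4 h (log2 ratios 1.48 and 2.77) and downwards at 12 h (-1.28, against 1.42% of all genes downwards). Txnrd1, a thioredoxin reductase, rose at 4 h (72.2 to 179 CPM, log2 ratio 1.31, 1.27 to 1.35), as did Nfe2l2, which encodes NRF2 itself (42.9 to 91.9 CPM, 1.10, 1.05 to 1.16). Nqo1, a quinone reductase, was past 2-fold at 12 h (1.07). The list's median log2 ratio at 4 h was 0.32, with 10 of 10 genes above 0. Over all genes with enough UMIs the median was 0.05, with 6722 of 11746 above 0.

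Hmox1 and Mt1 were highest in the same library in S1/S2-like cells of both sexes. Male-called S1/S2-like cells held Hmox1 at 101, 375, 862 and 29.1 CPM, and female-called ones at 122, 244, 468 and 15.1 CPM. At 12 h, Mt1 in PT-like cells was above its 0 h level and Hmox1 below it. DCT/CNT-like cells, the highest in Mt1, held Hmox1 at 5.73, 8.17, 15.9 and 8.67 CPM from 25 to 101 UMIs. A link between Hmox1 and Mt1 was not tested, and these values are given as description only.

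Of 9 genes that respond to glucocorticoids, 1 was past 2-fold in PT-like cells at 1 h (downwards, as were 0.404% of all genes). At 4 h it was 0 of 9, against 1.73% of all genes upwards and 1.24% downwards. At 12 h, 5 were past 2-fold, all downwards, against 1.42% of all genes: Zbtb16 (-4.19), Sgk1 (-2.22), Pdk4 (-2.00), Ddit4 (-1.67) and Per1 (-1.42). Ddit4 was also the gene past 2-fold at 1 h (-1.72). At 4 h the counts in S1/S2-like cells were as follows. In male-called cells 0 of 9 genes were past 2-fold upwards and 4 downwards (Zbtb16, Per1, Sgk1 and Pdk4), against 1.78% and 1.37% of all genes. In female-called cells 2 of 8 were past 2-fold upwards (Zbtb16 and Fkbp5) and 0 downwards, against 2.08% and 0.832% of all genes. Zbtb16 stood at 6.61, 8.32, 0.536 and 0.357 CPM in male-called and 1.41, 1.29, 18.8 and 0.114 CPM in female-called S1/S2-like cells. Whether the ratios of the list differ between the sexes was not tested.

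Of 16 acute phase genes, 8 had enough UMIs in PT-like cells. Fgb, the fibrinogen beta chain, was past 2-fold upwards at 4 h (1.39, against 1.73% of all genes), and Cebpd, a transcription factor of the acute phase, downwards at 1 h (-1.08) and 12 h (-1.12), against 0.404% and 1.42% of all genes. At 4 h, 3 of 7 acute phase genes with enough UMIs were past 2-fold upwards in female-called S1/S2-like cells (Fga at 2.34, Fgb at 1.64 and Cebpb at 1.22), against 2.08% of all genes. In male-called ones 1 of 7 was past it downwards (Cebpd at -1.39), against 1.37% of all genes. The acute phase markers Saa2 and Osmr had 0 UMIs in PT-like cells in every library.

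Genes were ranked by how closely their level followed each of the 5 over 40 points, 10 classes in 4 libraries, as Pearson correlation of log2(CPM + 1) over 12310 genes with at least 200 UMIs in all. The points share libraries and depth, and the values describe mostly the order of the classes. Mt1 was closest to Mt2 (0.95), and among the next were Paqr5 (0.92), Gpr162 (0.91) and Slc45a4 (0.90). Mt2 was closest to Mt1, and among the next were Syngr1 (0.93), Fam81a (0.93) and Ephb3 (0.92). Mtf1 was followed most closely by Exoc7 (0.89), Egln1 (0.87), Actr8 (0.86), Atxn1l (0.85) and U2surp (0.85). Slc30a1 was followed by Zfyve21 (0.87), Mfsd11 (0.86), Evi5 (0.85), Msantd4 (0.85) and Arhgef12 (0.84). Slc39a14 had the loosest matches, with Slc6a8 (0.72), Tbc1d13 (0.69), Ndufaf7 (0.69), Cdhr5 (0.69) and Sqle (0.68). Between Mt1 and the other genes the values were 0.04 for Mtf1, 0.41 for Slc30a1 and 0.44 for Slc39a14.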

How the data were processed

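The authors deposited raw UMI counts per gene and barcode, not normalised, for 12245 to 13813 barcodes per library. The submitters' processing notes name Cell Ranger 3.1.0, STAR, Seurat and the build mm10. The genes and lists were chosen with earlier results of these data known. Barcodes with under 300 genes or over 50% mitochondrial UMIs were left out (8758 to 10131 cells remained per library after removal of simulated-doublet calls, 7.59% to 8.89%). Cells were clustered without the 5 genes and the listed genes (leidenalg 0.10.2, resolution 1.5, 48 clusters). Clusters were named from markers by thresholds set after the clusters had been seen, which left 14 unnamed. UMIs were summed per class and library as CPM with exact Poisson intervals, and ratios to 0 h got exact conditional binomial intervals (scipy 1.17.1). The ratio intervals and the 2-fold calls were run on simulated Poisson counts. These counts leave out the spread between cells and animals, so that run does not speak to it. Named were the 5 genes, list genes past 2-fold in PT-like cells, zinc transporters and the 5 genes most like each, of which 1 is not reported here. Fga, Cebpb, Fkbp5, Gclc, Atox1, Sod1, Mt3, Mt4, Csrp1, Saa2 and Osmr were named after their values were seen. Promoters are from RefSeq and positions from GENCODE vM21, where 99.6% of the IDs were found.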

Additional observations from a re-analysis of the deposited data

Results flagged for a closer look

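Slc30a1 in PT-like cells lay above its 0 h level at 4 h (log2 ratio 0.19) and below it at 12 h (-0.42), with both counting intervals clear of 0. At 12 h S1/S2-like cells alone stood at -0.24, and medians over clusters were -0.10 (S1/S2-like) and -0.15 (S3-like). The part of the segment mix in the PT-like value was not tested. Slc39a14 at 1 h lay on opposite sides of 0 h in the sexes: in S1/S2-like cells its log2 ratio was -0.37 for the male calls and 0.47 for the female calls, and over all PT-like cells -0.29 and 0.24. With 1 library per group, neither difference was tested.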

How the results depend on the processing

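Of 135 ratios to 0 h of the 5 genes, 13 were past 2-fold with at least 100 UMIs over both libraries. Ratios with fewer UMIs were not called whatever their size, such as Slc30a1 in T/NK-like cells at 1 h (2.97). The share of all genes past 2-fold is given above for each class with a call. All 13 kept their sign under every alternative run for them, 9 stayed past 2-fold under each, and none of them reversed. Among the ratios not past the threshold, some of each of the 5 genes changed sign, such as Mt1 in IC-like cells at 1 h (-1.09 for male calls, 1.14 for female calls) and Mt2 there (-2.73 and 4.03). The Mt1 log2 ratio in PT-like cells at 1 h (1.49) was 1.64 with a mitochondrial limit of 25%, 1.42 in male-called, 1.28 in S1/S2-like and 1.70 in S3-like cells. At 4 h (3.59) it was 3.42 with that limit, 3.49 with every cell weighted equally, 3.50 without mitochondrial genes, 4.25 in male-called, 2.71 in female-called, 3.40 in S1/S2-like and 2.72 in S3-like cells. At 12 h (1.97) it was 2.19 with that limit, 2.25 in male-called, 1.52 in female-called, 1.61 in S1/S2-like and 2.11 in S3-like cells. Without the S3-like cluster led by Cyr61 and Fosb, an alternative added after seeing the data, it was 3.46 at 4 h and 1.80 at 12 h. Mt2 at 4 h (4.19) was 5.22 in male-called, 2.21 in female-called and 2.22 in S3-like cells. The calls that fell under 2-fold were Mt2 in PT-like cells at 12 h (0.90 in female-called cells), Mt1 in IC-like cells at 4 h (0.78 in male-called cells), and Mt2 in IC-like cells at 4 h (0.93 in male-called cells) and 12 h (0.60 in male-called cells). The cause was not tested. With a pseudocount of 10, 2 or 3 of the 5 genes most like each gene remained. No paired analysis was possible because each group is 1 library.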
